A study of Mus musculus with 12 samples.

Results

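The genes described here are 46 antiviral effectors that are induced by interferon, taken from a list of symbols that leaves out the Ifit, Oas, Gbp, Slfn, Ifi200, Irf and Stat families. All 46 had at least 10 counts in at least 2 libraries and entered the test, among 16281 genes tested and 54232 genes in the count table. They were measured by sequencing of poly(A)-selected RNA from bone marrow derived macrophages (BMDMs) of C57BL/6 wild type mice, cultured for 5 days and then kept for 24 h in 1 of 6 conditions, with 2 libraries per condition. The groups were no stimulation (NS), 500 nM R788, tumor-conditioned medium (TCM) of NB9464 cells, the same medium with 500 nM R788, TCM of NBT3L cells, and that medium with 500 nM R788. R788, also named fostamatinib, blocks Syk, a tyrosine kinase that relays signals from Fc receptors, integrins and C-type lectins in macrophages. NB9464 is a mouse neuroblastoma line with amplified MYCN, and NBT3L is a further line whose MYCN state the paper does not give. The labels do not say whether the 2 libraries of a group came from separate animals or cultures, so the p-values measure the spread between these libraries, which may be technical. Serum-free DMEM was left on NB9464 cells for 48 h to make their TCM, and the preparation of NBT3L TCM, the medium of the NS cells and the vehicle of R788 are not given in the sources used here. Differences in base medium or serum therefore cannot be told apart from those of TCM against NS. Whether cells without R788 received its vehicle is also not given, so an effect of the vehicle cannot be told apart from that of R788.

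Type I interferons bind the receptor IFNAR1/IFNAR2, whose kinases JAK1 and TYK2 lead to assembly of the factor complex ISGF3, which holds IRF9 and STAT2 and binds the interferon-stimulated response element (ISRE) in front of most antiviral effector genes. Interferon gamma acts through the gamma-activated site (GAS). Cultured macrophages are known to keep a low tonic interferon signal that holds many of these genes on without infection. The effectors act at separate steps of a virus life cycle: RIG-I-like receptors and ZBP1 sense foreign nucleic acid, ISG15 is attached to proteins, viperin and CMPK2 alter nucleotide pools, IFITM3 blocks entry, tetherin holds budding particles, and PARP and TRIM proteins mark or bind viral products.

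Promoter sequence from RefSeq (GRCm38.p6), from 250 bases before to 50 bases after each start, was at hand for 35 of the 46 members. The ISRE core GAAANNGAAA, searched on both strands, occurred in 12 of these 35 (34.3%) and in 3.99% of 27025 genes with an entry. The GAS core TTCNNNGAA, which reads the same on both strands, occurred in 6 of 35 (17.1%) and in 9.55% of all genes. The members with an ISRE core were Isg15, Cxcl10, Trim30a, Trim30d, Trim21, Bst2, Rsad2, Phf11b, Ifitm3, Eif2ak2, Ddx58 and Ifih1, and overlapping matches were counted once per gene. A match is a string of letters and was not tested for binding. In 7 members the core lay wholly before the start, and these stretches are shown because ISGF3 is known to bind this kind of sequence. Only Rsad2 met the rule set for showing sequence, and the other 6 were chosen after their values were seen. Each is written 5′ to 3′ on the strand of the gene, with the core in capitals.
Rsad2, chr12:26456538-26456597, minus strand: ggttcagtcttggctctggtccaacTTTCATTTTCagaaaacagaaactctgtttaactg
Isg15, chr4:156200850-156200921, minus strand: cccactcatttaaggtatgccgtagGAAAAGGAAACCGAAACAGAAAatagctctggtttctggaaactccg
Bst2, chr8:71537562-71537627, minus strand: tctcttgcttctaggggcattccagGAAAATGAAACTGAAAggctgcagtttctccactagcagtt
Cxcl10, chr5:92349068-92349127, minus strand: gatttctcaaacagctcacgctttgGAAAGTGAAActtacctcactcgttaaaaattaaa
Trim30a, chr7:104465195-104465254, minus strand: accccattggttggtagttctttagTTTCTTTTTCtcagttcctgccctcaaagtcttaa
Trim30d, chr7:104507856-104507915, minus strand: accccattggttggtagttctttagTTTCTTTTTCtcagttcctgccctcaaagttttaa
Phf11b, chr14:59341346-59341405, minus strand: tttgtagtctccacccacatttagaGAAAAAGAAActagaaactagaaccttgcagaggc
Isg15 held 3 overlapping cores in a row, ending 57 bases before the start, and Bst2 held 2. The single cores of Rsad2, Trim30a and Trim30d were read on the opposite strand, which is why they appear as TTTCNNTTTC. The stretches of the neighbors Trim30a and Trim30d were nearly the same. No entry was found for Dhx58, Ifi27l2a, Ly6e, Mx1, Mx2, Parp14, Parp9, Rtp4, Tor3a, Usp18 and Zbp1.

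Library totals were between 44977847 and 56449685 counts, with between 16149 and 18343 genes detected. The fewest genes were detected in R788 replicate 8, and the R788 pair was the least alike over all genes (SD of the log2 difference between replicates 0.371 over 10715 genes, against 0.230 to 0.261 in the other pairs). Among 45 members with a mean of at least 100 normalized counts, this SD was largest in NB9464 TCM + R788 (0.477) and between 0.102 and 0.291 in the other groups. The 7 macrophage markers had summed normalized counts between 1584938 and 1632104 in NS, 1976542 and 2102393 in NB9464 TCM and 2202268 and 2350092 in NBT3L TCM, and up to 2652001 with R788. Lyz2 made up most of each macrophage sum, with a mean of 1346359 in NS. Fcgr1 was lower with R788, with log2 fold changes of -2.23 (no TCM), -0.91 (NB9464) and -1.13 (NBT3L). Cd68 was lower than in NS with NB9464 TCM (-0.65), NBT3L TCM (-0.38) and R788 alone (-0.42). Against NS, Mertk was lower with NBT3L TCM (-0.68) and higher with NB9464 TCM (0.52) and R788 alone (0.76). Adgre1, Itgam and Lyz2 were higher with each TCM than in NS. Of markers of other cells, Siglech, Klk1 and Th were at 0. The 5 neuroblastoma markers summed to 0 without TCM and to at most 71.1 with it. The fibroblast markers summed to between 1096 and 1610 in libraries without R788 and between 1597 and 2821 with it. The neutrophil markers summed to between 3652 and 4101 in NS, 8024 and 8170 in NB9464 TCM, 9845 and 9979 in NBT3L TCM and 2362 and 7272 with R788. The rise of the neutrophil sum with TCM was that of S100a8. Its mean was 1265 normalized counts without stimulation, 6043 under NB9464 TCM and 7978 under NBT3L TCM. S100a9, Elane and Mpo had lower means under either TCM than without stimulation, and Ly6g had at most 4 counts in any library. The part of these other cells in the results was not tested. These are bulk samples, in which fewer cells of a type and less RNA per cell cannot be told apart.

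The summed level of the members was highest in unstimulated macrophages. In TPM (counts divided by gene length and scaled to the same total in each library), the 46 members together took 14907 ± 530 TPM in NS (SD, n = 2). The sum was 6838 ± 607 TPM with R788, 7634 ± 40.3 TPM in NB9464 TCM and 8343 ± 79.5 TPM in NBT3L TCM. It was lowest with both, at 3526 ± 5.95 TPM in NB9464 TCM + R788 and 3562 ± 15.4 TPM in NBT3L TCM + R788. The 5 highest members made up 75.9% of the sum in NS, and the median member stood at 73.0 TPM, so the sum follows a few genes. All 46 had their highest group mean in NS on the TPM scale. In normalized counts (counts divided by DESeq2 size factors) this held for 40, and the mean of 6 was highest in NBT3L TCM (Usp18, Dhx58, Zbp1, Bst2, Cxcl10 and Tor3a). The lowest mean of normalized counts fell in NB9464 TCM + R788 for 35 members, in NBT3L TCM + R788 for 7 and in R788 alone for 4 (Dhx58, Pnpt1, Phf11b and Nt5c3), where the libraries of Dhx58, Pnpt1 and Phf11b overlapped those of another group with R788. The shares of all genes with their highest or lowest mean in these groups were not computed. TPM is scaled to a fixed total. With scaling by library totals, the median of all genes against NS was -0.10 in NB9464 TCM and -0.23 in NBT3L TCM. The levels of TCM groups against NS in TPM therefore depend on the scaling.

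Per length, levels in NS spanned a wide range. Ifitm3, an endosomal entry inhibitor, stood at 5202 ± 267 TPM, and Bst2 (tetherin) at 2224 ± 182 TPM. Ifi27l2a (1469 ± 124 TPM) and Ly6e (1453 ± 8.87 TPM) did not differ beyond their spread, and Lgals3bp followed at 962 ± 0.297 TPM (SD, n = 2). Isg15 stood at 453 TPM and Rtp4 at 359 TPM. Effectors often used to read interferon signaling were lower, with Rsad2 at 55.6 TPM, Mx1 at 46.6 TPM, Cxcl10 at 19.4 TPM and Ifi44 at 9.78 TPM. Cxcl9 was the lowest member at 0.381 TPM.

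**Figure D1:**
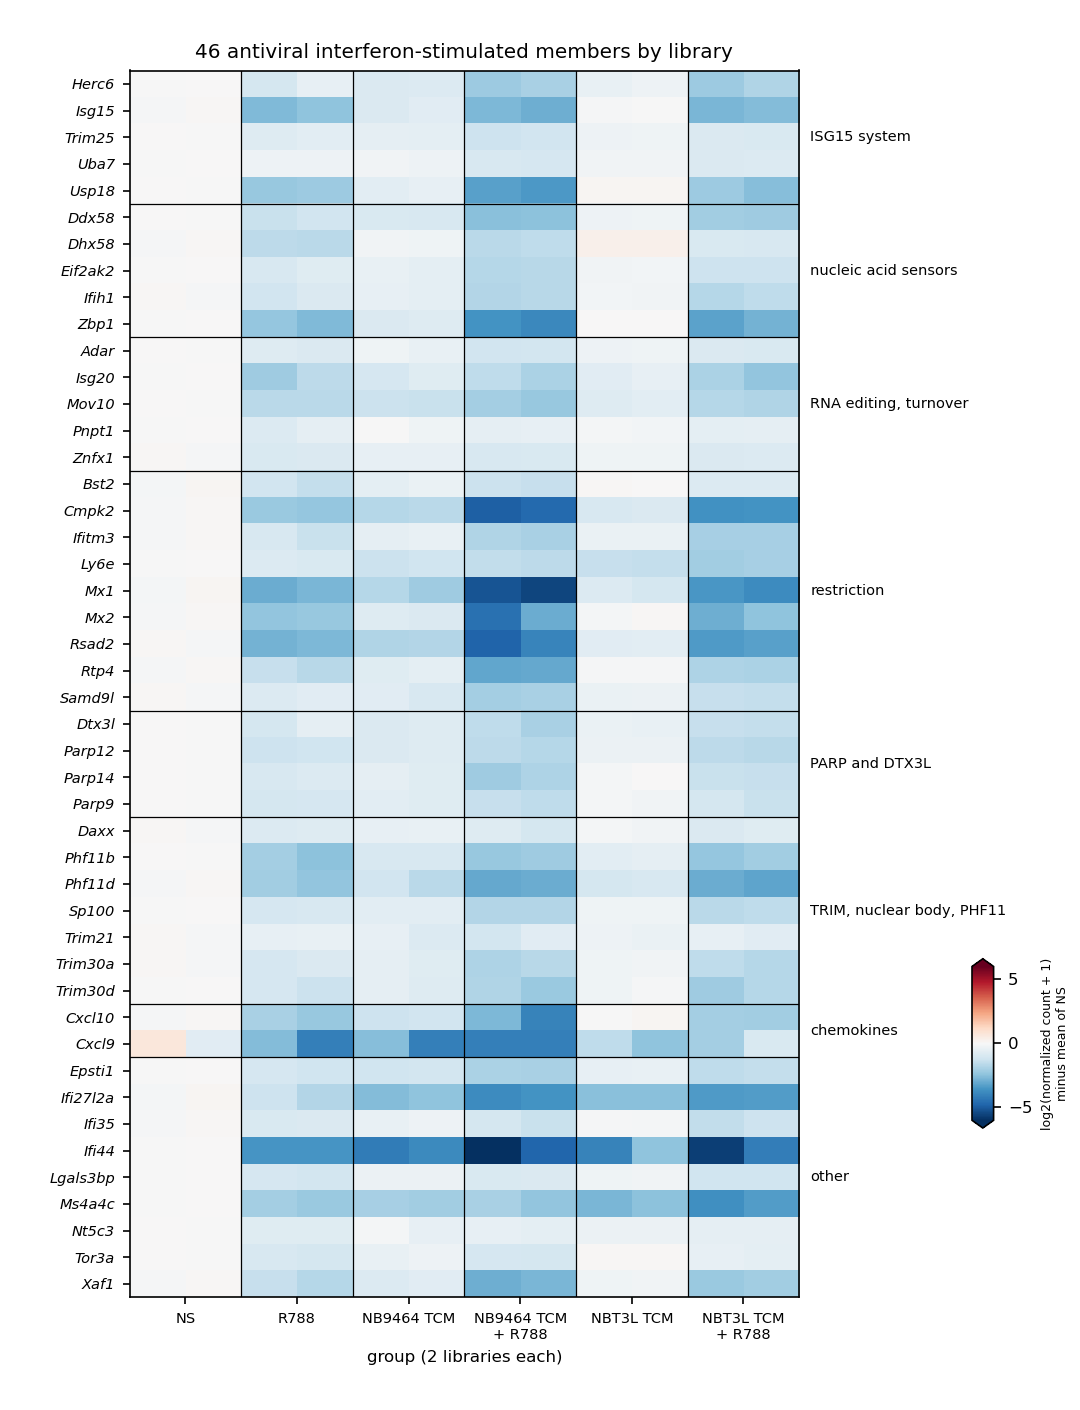
Heat map of the 46 members (rows, grouped by role) in the 12 libraries (columns, 2 per group), colored by log2(normalized count + 1) minus the mean of the 2 NS libraries. Blue marks values below NS, and the darkest columns are those of TCM with R788, where 35 and 7 members had their lowest mean.

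Most members were lower with R788 in every medium. Without TCM, 45 of 46 members were lower with R788 than in NS and none was higher, where 15.0% of all genes tested were lower and 11.6% higher (DESeq2 adjusted p of at most 0.00707 among the members called). In NB9464 TCM, 42 members were lower with R788, against 8.7% of all genes, and in NBT3L TCM 43 were lower, against 7.24%. The largest adjusted p among the called was 0.0439 in NB9464 TCM and 0.0105 in NBT3L TCM. Members had a median log2 fold change of -1.14 without TCM, -1.15 under NB9464 TCM and -1.27 under NBT3L TCM, and the corresponding medians of all genes were 0, -0.0031 and 0.0033. The median member kept between 41.5% and 45.3% of its count. At least a 2-fold fall was seen for 28, 25 and 30 members, where 2.87%, 1.65% and 1.4% of all genes reached it.

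Across the 3 media, 42 members were called lower with R788 each time, against 3.59% of all genes. Both R788 libraries lay below both libraries without R788 in each medium for 43 members, against 9.31% of all genes. The exceptions to this separation were Trim21, Cxcl9 and Ms4a4c. Trim21, a cytosolic antibody receptor and ubiquitin ligase, had normalized counts of 2062 and 1920 in NS, 1401 and 1464 in R788, 1423 and 1133 in NB9464 TCM, 934 and 1240 in NB9464 TCM + R788, 1616 and 1512 in NBT3L TCM, and 1428 and 1250 in NBT3L TCM + R788. Its log2 fold changes were -0.48 ± 0.15 without TCM (adjusted p = 0.00707), -0.23 ± 0.15 in NB9464 TCM and -0.22 ± 0.15 in NBT3L TCM. The first of these was called and the others were not, and the call was lost without NS replicate 1 (adjusted p = 0.0893). Nt5c3, a pyrimidine nucleotidase, was lower with R788 without TCM (-0.71 ± 0.13) and not called in either TCM. Leaving out any single library kept 44 of the 45 calls without TCM, 38 of 42 with NB9464 TCM and 42 of 43 with NBT3L TCM. Without R788 replicate 8, the library with the fewest genes, 45 members were still lower and the median was -1.10.

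**Figure D2:**
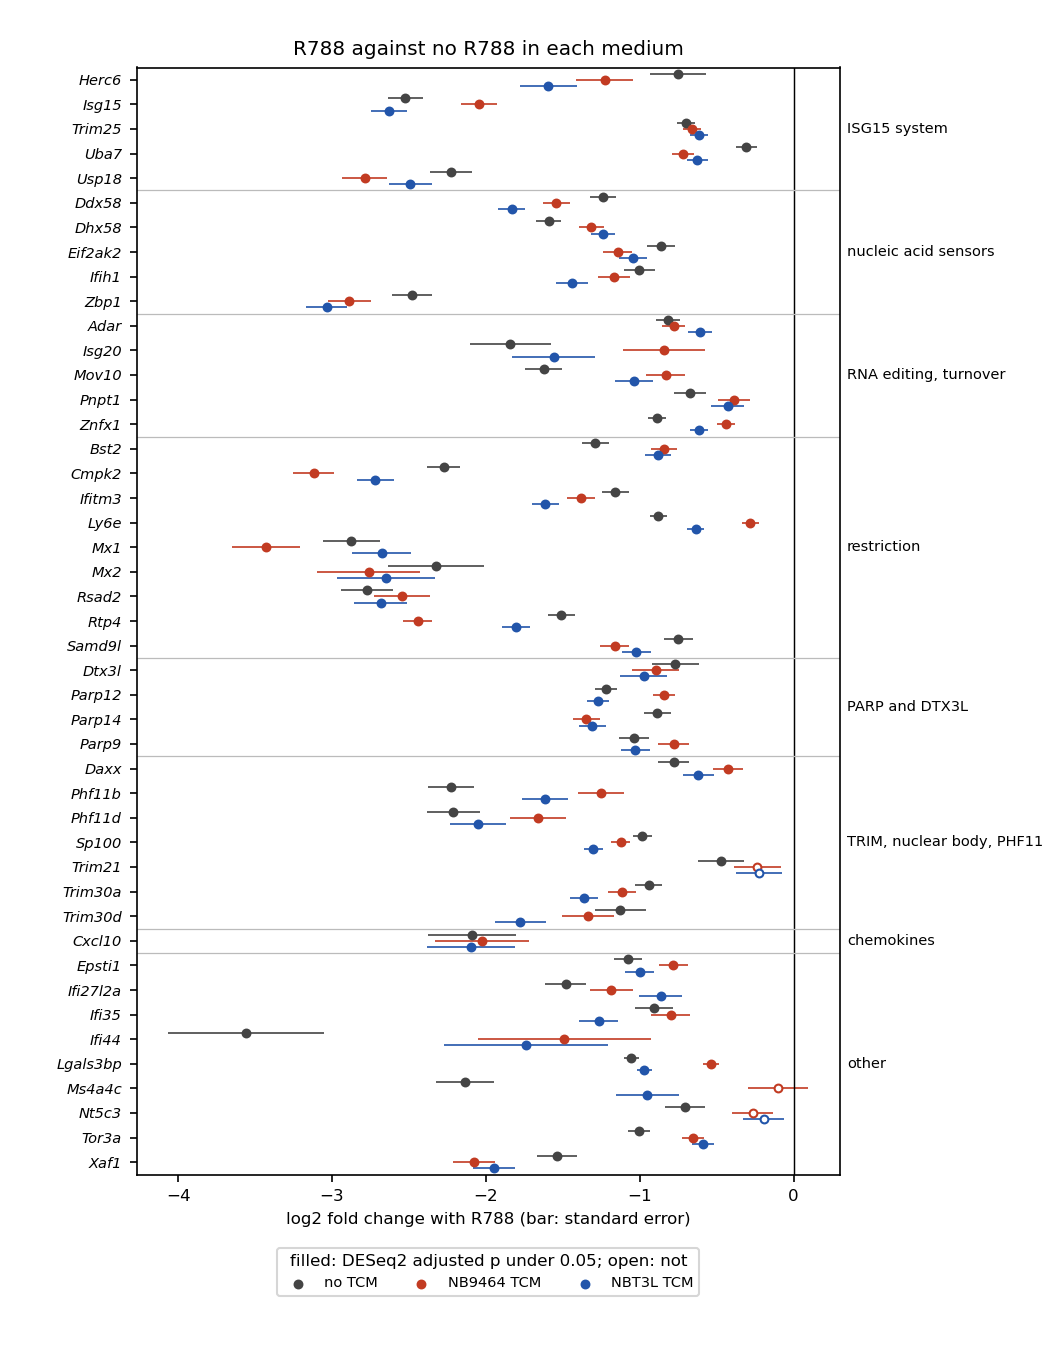
Log2 fold change with R788 (x axis, bar: standard error) of 45 members (y axis, grouped by role, Cxcl9 left out for low counts) without TCM, with NB9464 TCM and with NBT3L TCM. Filled points are called at an adjusted p under 0.05, and all values lie left of 0.

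Each TCM without R788 also went with lower levels, more broadly for NB9464. In NB9464 TCM, 43 of 46 members were lower than in NS and none was higher, where 16.9% of all genes were lower and 17.2% higher (largest adjusted p among the called 0.0246). In NBT3L TCM, 24 members were lower and 1, Dhx58, was higher, where 17.3% and 18.0% of all genes were lower and higher (largest adjusted p 0.0296). In size-factor scaling, the median log2 fold change was -0.71 in NB9464 TCM and -0.28 in NBT3L TCM, against 0.02 and 0 over all genes. The typical member thus stood at 61.1% of NS in NB9464 TCM and at 82.6% in NBT3L TCM. The NBT3L TCM counts depended on the scaling. With scaling by library totals, an alternative added after the data were seen, the median over all genes moved to -0.23 in NBT3L TCM and -0.10 in NB9464 TCM against NS. Calls over all genes in NBT3L TCM were then 1826 higher and 4993 lower, in place of 2938 and 2817. Of the members, 38 were lower in NBT3L TCM with a median of -0.51, none was higher, and Dhx58 was lost (adjusted p = 0.592), while 45 were lower in NB9464 TCM with a median of -0.84. In NB9464 TCM, calls over all genes were 2079 higher and 3796 lower, in place of 2805 and 2747. Called lower in both media were 23 members, against 13.3% of all genes. Leaving out any single library kept 39 of 43 calls in NB9464 TCM, with Dhx58, Ifi35, Isg20 and Mx2 lost in 1 or more cases. It kept 19 of 25 in NBT3L TCM, with Ddx58, Dhx58, Dtx3l, Nt5c3, Trim30a and Uba7 lost in 1 or more cases.

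**Figure D3:**
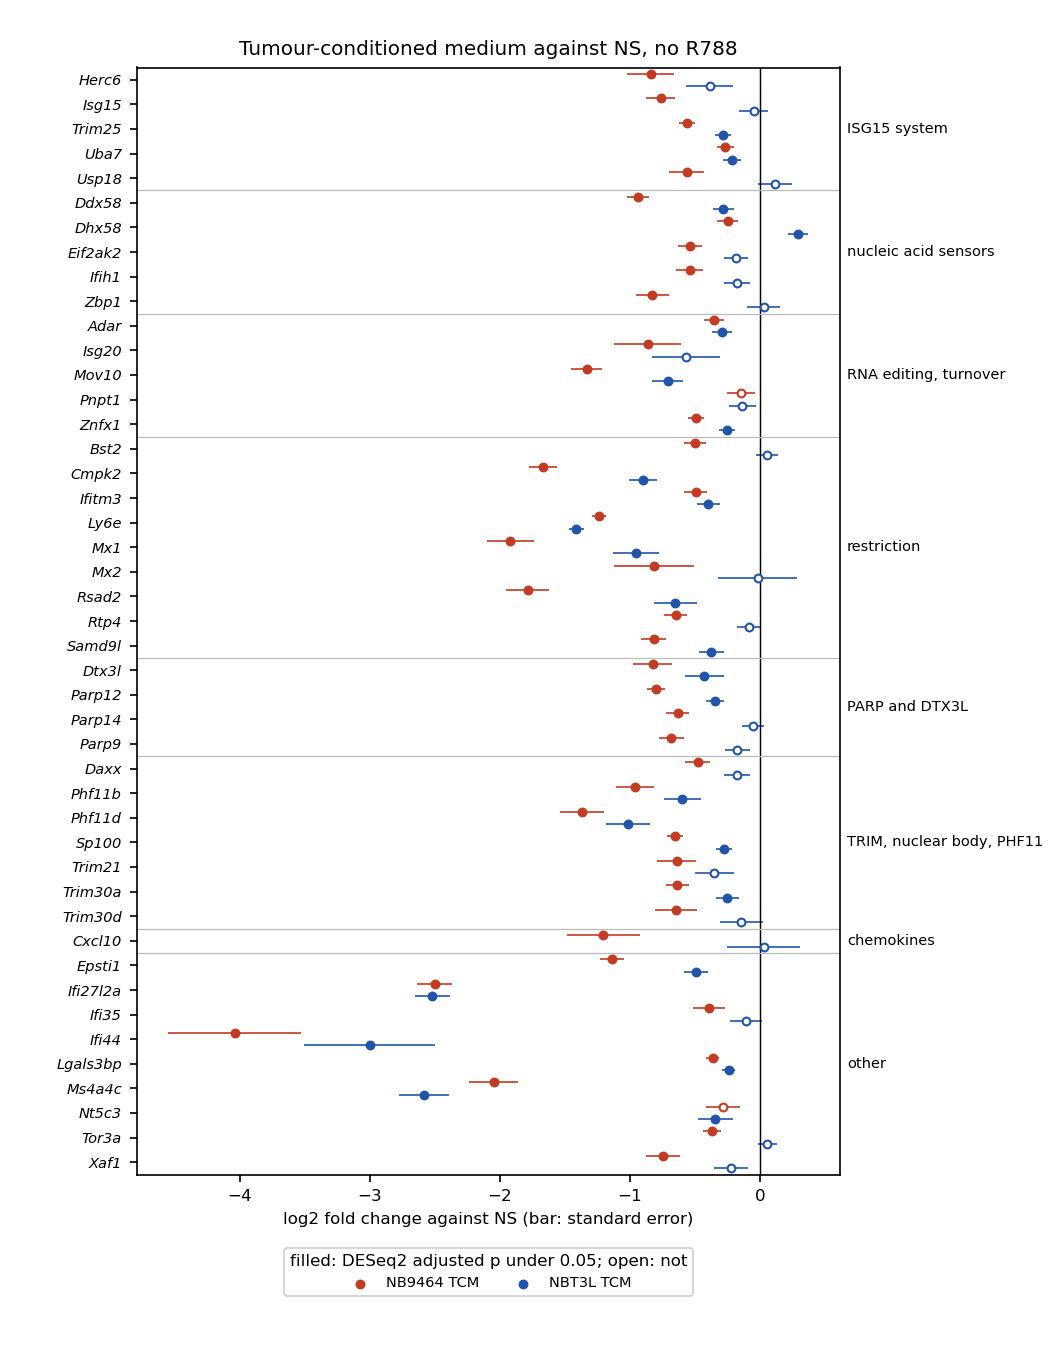
Log2 fold change against NS (x axis, bar: standard error) of 45 members (y axis, grouped by role, Cxcl9 left out for low counts) in NB9464 TCM and NBT3L TCM without R788. Filled points are called; the members farthest to the left in both media are Ifi44, Ifi27l2a and Ms4a4c.

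The media differed from each other as well. With no R788 in either, 27 of 46 members were lower in NB9464 TCM than in NBT3L TCM, where 5.72% of all genes were, and 2 were higher (Ly6e and Ms4a4c), where 3.69% were. The median was -0.43. With scaling by library totals, 22 were lower and 2 higher with a median of -0.33, and calls over all genes were 1269 higher and 495 lower, in place of 600 and 931. Among the 27, Cxcl10 (-1.23 ± 0.28, adjusted p = 0.000232), Rsad2 (-1.13 ± 0.17, adjusted p = 6.22e-10) and Mx1 (-0.97 ± 0.18, adjusted p = 3.88e-06) differed most. All 5 nucleic acid sensors were lower in NB9464 TCM, with a median of -0.54, and Ifih1 and Eif2ak2 were lost with scaling by library totals. The 2 higher calls were small: Ly6e at 0.17 ± 0.055 and Ms4a4c at 0.54 ± 0.20. Neither was called by edgeR (adjusted p = 0.0521 and 0.0773), and each was lost when NB9464 TCM replicate 4 or either NBT3L TCM replicate was left out. Leaving out any single library kept 21 of the 29 calls.

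For 26 members the libraries stood in the order NB9464 TCM + R788 lowest, then NB9464 TCM, then NBT3L TCM, then NS, with no overlap between neighbors, against 2.76% of all genes. With TCM and R788 together, 46 of 46 members were lower than in NS for NB9464 (19.4% of all genes) and 45 for NBT3L (19.7%), with medians of -1.90 and -1.64. Without Cxcl9, whose libraries in NB9464 TCM + R788 were at 0, the range for NB9464 was from -5.53 (Ifi44) to -0.53 (Pnpt1). For 33 members both libraries of NB9464 TCM + R788 lay below those of NS, R788 and NB9464 TCM, against 11.3% of all genes, and for 32 the same held of NBT3L TCM + R788, against 10.4%.

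**Figure D4:**
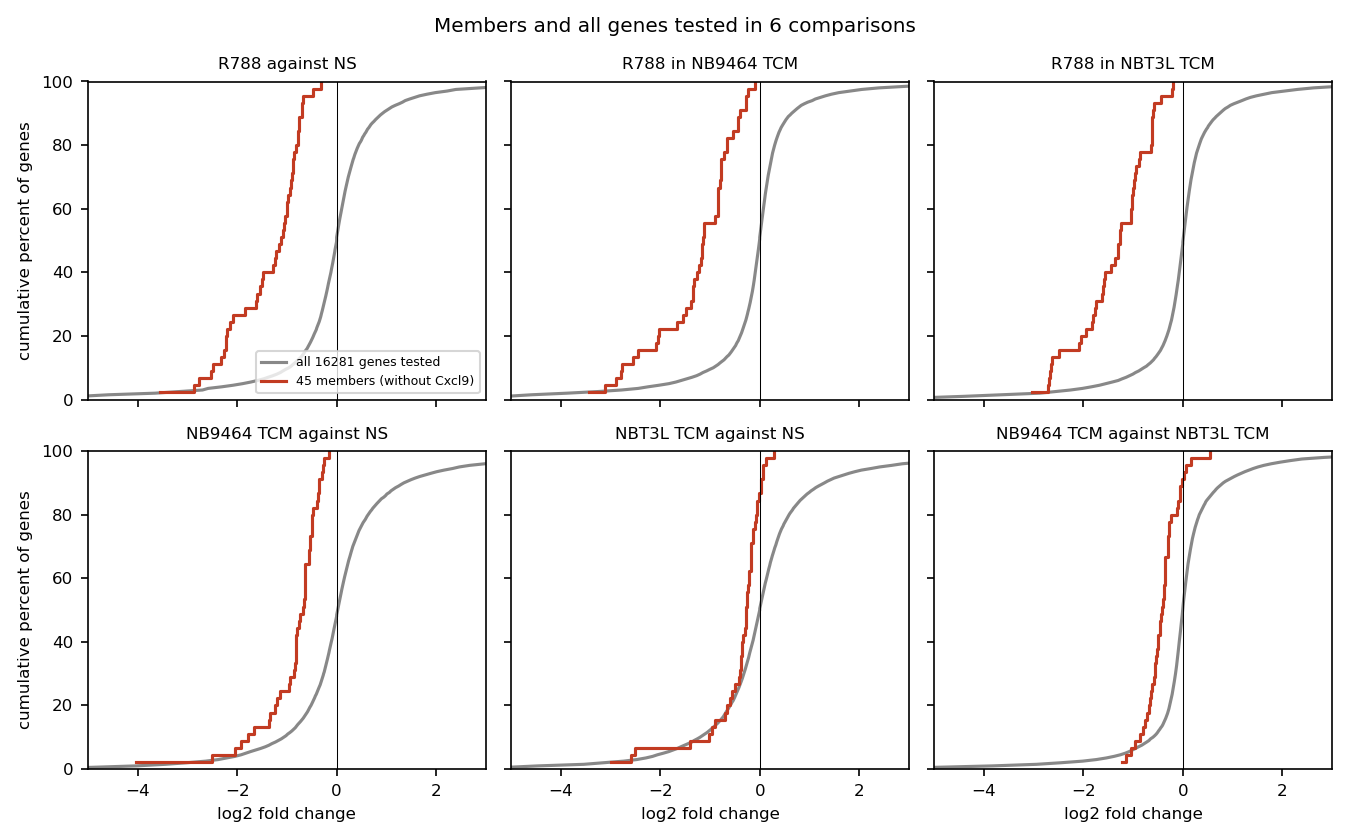
Cumulative percent (y axis) of log2 fold changes (x axis, shown from -5 to 3) in 6 comparisons, for 45 members without Cxcl9 (red) and all 16281 genes tested (grey). The members lie left of all genes in each panel, with medians from -1.27 for R788 in NBT3L TCM to -0.27 for NBT3L TCM against NS.

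The restriction factors that act on nucleotides and replication held several of the largest falls with R788. Rsad2 encodes viperin, an enzyme that makes a chain-terminating nucleotide, and Cmpk2, which lies beside it in the opposite direction 12751 bases away on chromosome 12, supplies its substrate. Rsad2 (ENSMUSG00000020641, chromosome 12, 26442746 to 26456452, minus strand) had normalized counts of 4010 and 3547 in NS, 522 and 582 in R788, 1073 and 1121 in NB9464 TCM, 134 and 243 in NB9464 TCM + R788, 2363 and 2451 in NBT3L TCM, and 362 and 388 in NBT3L TCM + R788. Cmpk2 had 4522 and 4860 in NS, 1016 and 924 in R788, 1454 and 1507 in NB9464 TCM, 157 and 184 in NB9464 TCM + R788, 2444 and 2593 in NBT3L TCM, and 381 and 385 in NBT3L TCM + R788. Both followed the same order, with NS at the top, NBT3L TCM next and every R788 group below all groups without R788. The log2 fold change of Rsad2 with R788 was -2.77 ± 0.17 without TCM, -2.55 ± 0.18 with NB9464 TCM and -2.68 ± 0.17 with NBT3L TCM, and against NS it was -1.78 ± 0.17 in NB9464 TCM and -0.65 ± 0.16 in NBT3L TCM. That of Cmpk2 with R788 was -2.27 ± 0.11, -3.12 ± 0.13 and -2.72 ± 0.12 in the same media, so that 3.63% of the NS level was left in NB9464 TCM + R788.

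Mx1 and Mx2 encode dynamin-like GTPases that trap viral nucleoproteins, and laboratory C57BL/6 mice are known to carry defective copies of both. The annotation lists Mx2 as a polymorphic pseudogene, and because the pair is alike in sequence, the split of reads between them is uncertain. Mx1 (ENSMUSG00000000386, chromosome 16, 97447035 to 97462907, minus strand) had normalized counts of 2577 and 2960 in NS, 348 and 406 in R788, 847 and 619.6 in NB9464 TCM, 75.6 and 59.98 in NB9464 TCM + R788, 1557 and 1309 in NBT3L TCM, and 247 and 201 in NBT3L TCM + R788. It showed the largest fall of all members with R788 in NB9464 TCM (-3.43 ± 0.22, adjusted p = 3.46e-52), to 9.28% of the level without R788. Mx2 had 629 and 683 in NS, 127 and 135 in R788, 389 and 358 in NB9464 TCM, 28.8 and 82.2 in NB9464 TCM + R788, 604 and 693 in NBT3L TCM, and 85.9 and 121 in NBT3L TCM + R788. Its libraries were lower with R788 in each medium (-2.32 ± 0.31, -2.76 ± 0.33 and -2.65 ± 0.32). Its call in NB9464 TCM against NS (-0.81 ± 0.30) was lost when any 1 of the 4 libraries was left out.

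Ifitm3, Bst2 and Ly6e act at membranes. Ifitm3 fell from a mean of 55400 ± 4061 normalized counts in NS to 24818 ± 4474 with R788 (SD, n = 2). Its log2 fold changes with R788 in the 3 media were -1.16 ± 0.090, -1.38 ± 0.090 and -1.61 ± 0.090. Bst2, whose product tethers budding virus to the cell, had normalized counts of 29249 and 33872 in NS, 14170 and 11682 in R788, 21095 and 23671 in NB9464 TCM, 12720 and 12234 in NB9464 TCM + R788, 33566 and 32083 in NBT3L TCM, and 17579 and 18045 in NBT3L TCM + R788. Its NBT3L TCM libraries overlapped those of NS, whereas NB9464 TCM was lower (-0.50 ± 0.086), and R788 lowered it in each medium. Ly6e (ENSMUSG00000022587, chromosome 15, 74955051 to 74959905, plus strand), a lipid-anchored surface protein that restrains coronavirus fusion, had 85351 and 87294 in NS, 48600 and 45198 in R788, 35569 and 37626 in NB9464 TCM, 31097 and 29136 in NB9464 TCM + R788, 32647 and 32334 in NBT3L TCM, and 20370 and 21414 in NBT3L TCM + R788. It was lowest in NBT3L TCM + R788, and both media alone were below R788 alone. Its log2 fold change was -1.24 ± 0.055 in NB9464 TCM, -1.41 ± 0.055 in NBT3L TCM and -0.88 ± 0.055 with R788.

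Samd9l, a translational repressor of poxviruses, had normalized counts of 9520 and 8815 in NS, 5231 and 5678 in R788, 5770 and 4652 in NB9464 TCM, 2249 and 2403 in NB9464 TCM + R788, 6990 and 7173 in NBT3L TCM, and 3569 and 3402 in NBT3L TCM + R788. Rtp4, a chaperone-like protein that restrains flavivirus replication, had 11287 and 12742 in NS, 4606 and 3832 in R788, 7339 and 8033 in NB9464 TCM, 1394 and 1433 in NB9464 TCM + R788, 11403 and 11290 in NBT3L TCM, and 3303 and 3195 in NBT3L TCM + R788. In NBT3L TCM the Rtp4 libraries lay within the range of NS, and in NB9464 TCM + R788 they stood at 11.8% of NS. All 9 restriction factors were lower with R788 in each medium and lower in NB9464 TCM, and 6 of 9 were lower in NBT3L TCM. Their median with R788 was -1.51 without TCM, -2.44 with NB9464 TCM and -1.80 with NBT3L TCM.

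**Figure D5:**
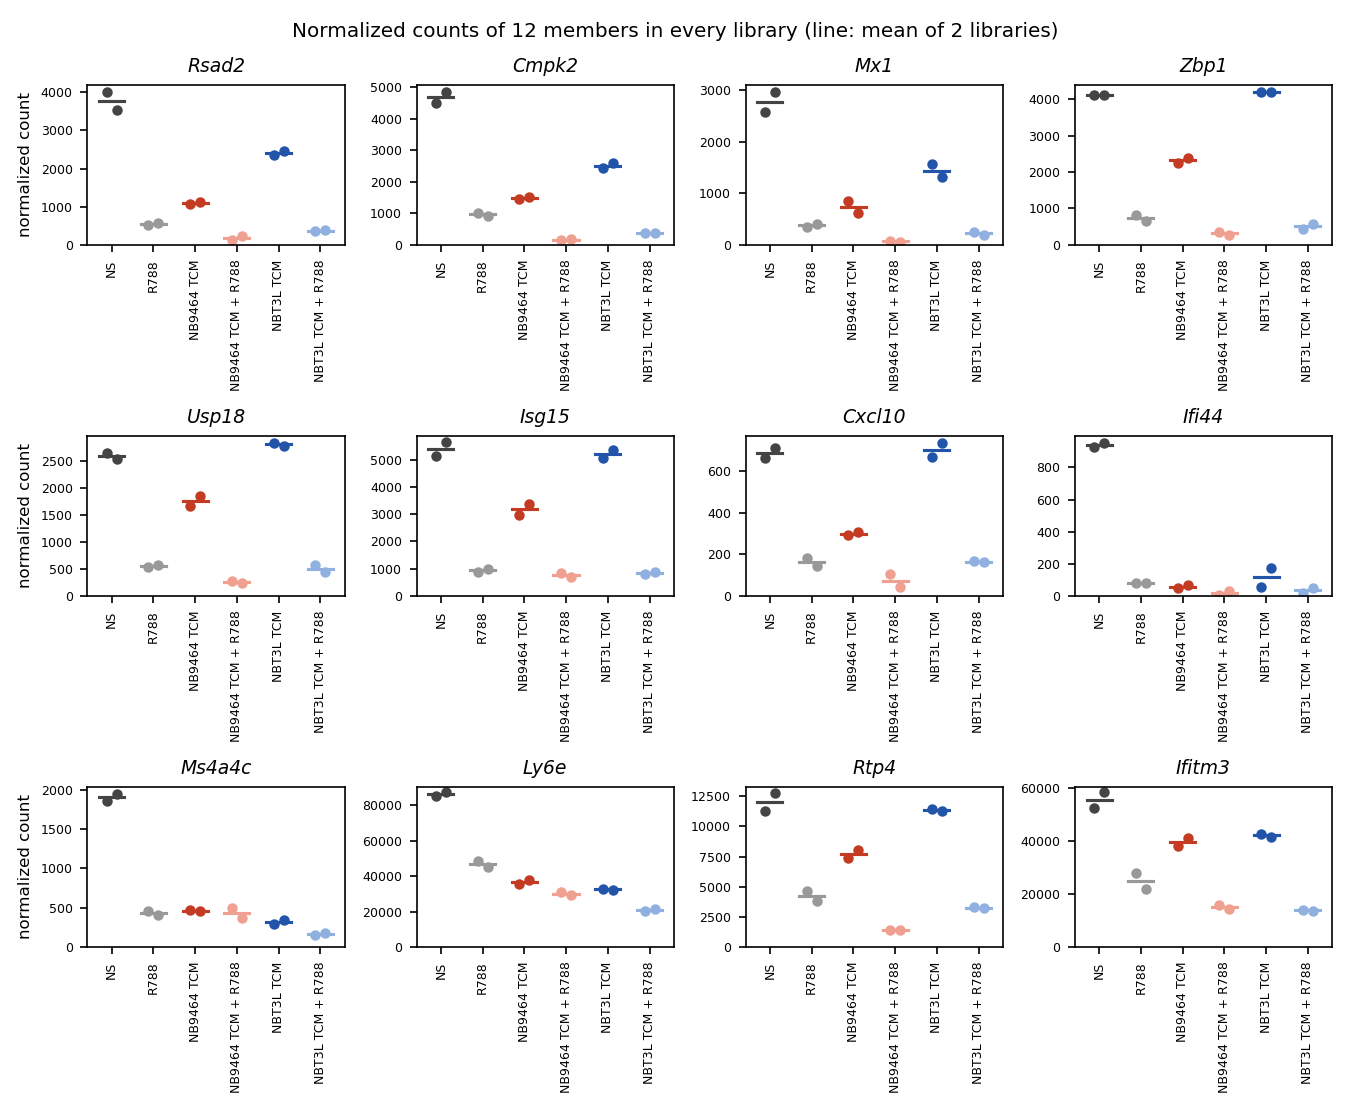
Normalized counts (y axis, linear from 0, own scale per panel) of 12 members in every library, by group (x axis), with a line at the mean of 2 libraries. In every panel but that of Ms4a4c, both R788 points lie below both points of the same medium without R788.

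In the ISG15 system, the modifier and its protease fell more with R788 than the activating enzyme and the ligases. Isg15 (ENSMUSG00000035692, chromosome 4, 156199424 to 156200818, minus strand), a ubiquitin-like protein, was chosen for its library values after they were seen and had normalized counts of 5128 and 5633 in NS, 869 and 1001 in R788, 2983 and 3366 in NB9464 TCM, 841 and 698 in NB9464 TCM + R788, 5056 and 5364 in NBT3L TCM, and 797 and 887 in NBT3L TCM + R788. NBT3L TCM did not separate from NS, whereas NB9464 TCM was lower (-0.76 ± 0.11) and R788 took it to between 698 and 1001 in all 3 media (-2.52 ± 0.11, -2.04 ± 0.12 and -2.63 ± 0.12). Usp18, the protease that removes ISG15 and also damps IFNAR2 signaling, had 2648 and 2547 in NS, 531 and 578 in R788, 1663 and 1853 in NB9464 TCM, 274 and 235 in NB9464 TCM + R788, 2852 and 2781 in NBT3L TCM, and 566 and 436 in NBT3L TCM + R788. It was highest in NBT3L TCM, where its log2 fold change against NS of 0.12 ± 0.13 was not called and was -0.12 with scaling by library totals. R788 changed Usp18 by -2.23, -2.79 and -2.49 on the log2 scale without TCM, with NB9464 TCM and with NBT3L TCM.

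Uba7, the enzyme that activates ISG15, had normalized counts of 6233 and 6266 in NS, 5052 and 5049 in R788, 5404 and 5008 in NB9464 TCM, 3205 and 3118 in NB9464 TCM + R788, 5327 and 5444 in NBT3L TCM, and 3458 and 3513 in NBT3L TCM + R788. Its falls with R788 were among the smallest, -0.31 ± 0.067 without TCM, -0.72 ± 0.069 with NB9464 TCM and -0.63 ± 0.069 with NBT3L TCM. The ligases Herc6 and Trim25 were lower with R788 in each medium, with log2 fold changes for Herc6 of -0.75, -1.23 and -1.59 and for Trim25 of -0.70, -0.66 and -0.62. All 5 genes of the system were lower in NB9464 TCM than in NS, and 2 (Trim25 and Uba7) were lower in NBT3L TCM, where Herc6 was not called at -0.38 ± 0.18. Herc6 was called there with scaling by library totals (-0.62).

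All 5 nucleic acid sensors were lower with R788 in each medium and lower in NB9464 TCM. Zbp1 (ENSMUSG00000027514, chromosome 2, 173206612 to 173218923, minus strand), a sensor of Z-form nucleic acid that can start necroptosis, had normalized counts of 4108 and 4120 in NS, 819.8 and 656 in R788, 2259 and 2384 in NB9464 TCM, 341 and 285 in NB9464 TCM + R788, 4203 and 4198 in NBT3L TCM, and 446 and 578 in NBT3L TCM + R788. The NS and NBT3L TCM libraries stood together near the top (0.03 ± 0.13, not called, and -0.20 with scaling by library totals), and R788 left 12.2% of the level in NBT3L TCM, the largest fall there (-3.04 ± 0.14, adjusted p = 1.08e-108). Dhx58 (LGP2), a RIG-I-like receptor without signaling domains, had 5371 and 6013 in NS, 1916 and 1862 in R788, 4874 and 4724 in NB9464 TCM, 1878 and 1977 in NB9464 TCM + R788, 6984 and 6968 in NBT3L TCM, and 3029 and 2885 in NBT3L TCM + R788. It was the only member higher in NBT3L TCM than in NS (0.29 ± 0.078, adjusted p = 0.000748), a call lost without NS replicate 1 (adjusted p = 0.0736) and with scaling by library totals (adjusted p = 0.592). Annotated antisense genes overlap exons of Dhx58, Usp18, Eif2ak2, Adar, Znfx1, Cxcl10, Ifi35, Ms4a4c and the Parp9 and Dtx3l pair, and since the counting is not stated to use strand, reads of such pairs cannot be told apart. Exons of Herc6, Parp14, Rtp4, Sp100 and Uba7 overlap an annotated gene on the same strand, so their counts may miss shared reads.

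Ddx58 (RIG-I) changed with R788 by -1.24 without TCM, -1.54 with NB9464 TCM and -1.83 with NBT3L TCM, and Ifih1 (MDA5) by -1.002, -1.17 and -1.44. Eif2ak2 encodes PKR, the kinase that halts translation on double-stranded RNA. It fell with R788 from a mean of 6023 ± 267 to 3317 ± 382 normalized counts without TCM (SD, n = 2) and changed by -1.14 and -1.04 on the log2 scale in NB9464 and NBT3L TCM. In NBT3L TCM against NS, only Ddx58 of these sensors was lower (-0.28 ± 0.083), and that call was lost without NS replicate 1 or NBT3L TCM replicate 5.

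Among the genes of RNA editing and RNA turnover, Isg20 and Mov10 fell most with R788 alone. Mov10, an RNA helicase that restrains retroelements, had normalized counts of 2979 and 2797 in NS, 926 and 948 in R788, 1166 and 1131 in NB9464 TCM, 700.3 and 589 in NB9464 TCM + R788, 1692 and 1846 in NBT3L TCM, and 893 and 830.0 in NBT3L TCM + R788. Znfx1, a helicase at the mitochondrial surface that senses viral RNA, had 16663 and 15418 in NS, 8413 and 8888 in R788, 11459 and 11382 in NB9464 TCM, 8296 and 8547 in NB9464 TCM + R788, 13392 and 13568 in NBT3L TCM, and 8667 and 8945 in NBT3L TCM + R788. For both, NS was highest and the fall with R788 was larger without TCM (-1.62 ± 0.12 and -0.89 ± 0.059) than in NB9464 TCM (-0.83 ± 0.12 and -0.44 ± 0.059), with the tests of that difference given with the interactions. Adar, which edits adenosine in double-stranded RNA, had normalized counts of 6705 and 6656 in NS, 3885 and 3699 in R788, 5533 and 4934 in NB9464 TCM, 3013 and 3079 in NB9464 TCM + R788, 5337 and 5597 in NBT3L TCM, and 3648 and 3529 in NBT3L TCM + R788. It was lower with R788 in each medium, with log2 fold changes of -0.82, -0.78 and -0.61. Isg20, an exonuclease, changed by -1.84, -0.84 and -1.56, and its call in NB9464 TCM was lost without NB9464 TCM replicate 4 or NB9464 TCM + R788 replicate 10. Pnpt1, a mitochondrial RNA-degrading enzyme, had normalized counts of 3104 and 3156 in NS, 1787 and 2130 in R788, 3032 and 2635 in NB9464 TCM, 2122 and 2214 in NB9464 TCM + R788, 2887 and 2821 in NBT3L TCM, and 2078 and 2159 in NBT3L TCM + R788. Its log2 fold changes were -0.68 ± 0.10 with R788 alone and uncalled values of -0.14 ± 0.10 and -0.13 ± 0.10 in the media. With scaling by library totals, Pnpt1 was called lower in NB9464 TCM (-0.27) and in NBT3L TCM (-0.37).

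Parp9, Parp14 and Dtx3l lie together on chromosome 16, where Dtx3l and Parp9 overlap by 682 bases on opposite strands. PARP9 and DTX3L form a complex that modifies histones and viral proteins, and Parp14 and Parp12 transfer ADP-ribose. Parp12 had normalized counts of 9314 and 9170 in NS, 3896 and 4038 in R788, 5147 and 5468 in NB9464 TCM, 3082 and 2826 in NB9464 TCM + R788, 7180 and 7353 in NBT3L TCM, and 3079 and 2946 in NBT3L TCM + R788. Parp14 had 15365 and 14770 in NS, 7693 and 8619 in R788, 10268 and 9196 in NB9464 TCM, 3466 and 4186 in NB9464 TCM + R788, 13973 and 15099 in NBT3L TCM, and 5879 and 5867 in NBT3L TCM + R788. Parp12 stepped down from NS through NBT3L TCM to NB9464 TCM, whereas Parp14 in NBT3L TCM lay close to NS. With R788 all 4 genes were lower in each medium, Parp9 with log2 fold changes of -1.04, -0.78 and -1.03 and Dtx3l with -0.77, -0.90 and -0.98. All 4 were lower in NB9464 TCM, with a median of -0.74, and 2 (Parp12 and Dtx3l) were lower in NBT3L TCM.

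Among the TRIM, nuclear body and PHF11 genes, the PHF11 pair fell most with R788 alone. Phf11b had normalized counts of 2558 and 2502 in NS, 623 and 459.9 in R788, 1318 and 1287 in NB9464 TCM, 521 and 571 in NB9464 TCM + R788, 1628 and 1724 in NBT3L TCM, and 506 and 586 in NBT3L TCM + R788. Its paralog Phf11d, 6055 bases away on chromosome 14, fell from a mean of 2281 ± 179.6 in NS to 492 ± 64.9 with R788 and 273 ± 23.5 in NBT3L TCM + R788 (SD, n = 2), and how reads were split between these copies is uncertain. Phf11b had overlapping libraries in the 3 groups with R788, and its fall with R788 was -2.23 ± 0.15 without TCM, -1.25 ± 0.15 with NB9464 TCM and -1.62 ± 0.15 with NBT3L TCM. Trim30a and Trim30d, paralogs 4820 bases apart on chromosome 7, changed with R788 by -0.94, -1.11 and -1.36 and by -1.13, -1.34 and -1.78. Sp100, a scaffold of nuclear bodies that silences viral DNA, changed by -0.98, -1.12 and -1.30. Daxx, a histone chaperone of the same bodies, had normalized counts of 4854 and 4539 in NS, 2681 and 2788 in R788, 3284 and 3464 in NB9464 TCM, 2747 and 2267 in NB9464 TCM + R788, 4290 and 4034 in NBT3L TCM, and 2586 and 2833 in NBT3L TCM + R788. It changed with R788 by -0.78, -0.43 and -0.62, and the NB9464 TCM value was not called without NB9464 TCM + R788 replicate 10. All 7 were lower in NB9464 TCM than in NS, and 4 in NBT3L TCM.

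The chemokines Cxcl9 and Cxcl10 attract T cells through CXCR3 and lie side by side on chromosome 5. Cxcl10 (ENSMUSG00000034855, chromosome 5, 92346638 to 92348889, minus strand) had normalized counts of 664 and 709 in NS, 180.0 and 143 in R788, 291 and 306 in NB9464 TCM, 103 and 42.2 in NB9464 TCM + R788, 666 and 736 in NBT3L TCM, and 165 and 163 in NBT3L TCM + R788. Its NBT3L TCM libraries overlapped those of NS, while NB9464 TCM stood at 43.4% of NS (-1.20 ± 0.28, adjusted p = 9.51e-05), and R788 changed it by -2.09, -2.02 and -2.09 on the log2 scale in the 3 media. Cxcl9 was barely detected, with 26.3 and 9.48 in NS, 1.82 and 0 in R788, 1.91 and 0 in NB9464 TCM, 0 and 0 in NB9464 TCM + R788, 4.95 and 2.16 in NBT3L TCM, and 3.18 and 8.04 in NBT3L TCM + R788. Both libraries of NB9464 TCM + R788 were at 0, so the mean was at least 5.66-fold lower than in NS, taking 3 counts per library as the floor. No other comparison of Cxcl9 was called, and DESeq2 gave this one no adjusted p when any 1 of the 4 libraries compared was left out or counts were halved.

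The other interferon-stimulated genes held the largest falls with TCM. Ifi44 (ENSMUSG00000028037, chromosome 3, 151730922 to 151749960, minus strand), a cytoplasmic protein of the interferon response, had normalized counts of 929.8 and 952 in NS, 79.98 and 79.8 in R788, 49.7 and 65.03 in NB9464 TCM, 7.96 and 33.3 in NB9464 TCM + R788, 58.2 and 176 in NBT3L TCM, and 18.03 and 52.3 in NBT3L TCM + R788. Every group other than NS was low, at log2 fold changes of -3.56 ± 0.51 with R788, -4.03 ± 0.51 in NB9464 TCM and -3.0003 ± 0.50 in NBT3L TCM. The further fall with R788 within the media (-1.49 ± 0.56 and -1.74 ± 0.53) was called by DESeq2 and not by edgeR (adjusted p = 0.125 and 0.0525). It rested on few counts and was lost in NB9464 TCM without any 1 of 3 libraries, namely NB9464 TCM replicates 3 and 4 and NB9464 TCM + R788 replicate 9, and in NBT3L TCM without NBT3L TCM replicate 6 or NBT3L TCM + R788 replicate 11.

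Ifi27l2a, a small mitochondrial protein, had normalized counts of 9880 and 11492 in NS, 4486 and 3171 in R788, 1772 and 2010 in NB9464 TCM, 777 and 889 in NB9464 TCM + R788, 1871 and 1863 in NBT3L TCM, and 1014 and 1037 in NBT3L TCM + R788. Both media lowered it to a like degree (-2.50 ± 0.13 and -2.52 ± 0.13), and R788 lowered it further. Ms4a4c (ENSMUSG00000024675, chromosome 19, 11404770 to 11427246, plus strand), a tetraspan membrane protein of myeloid cells, had 1857 and 1953 in NS, 459 and 409 in R788, 472 and 452 in NB9464 TCM, 494 and 367 in NB9464 TCM + R788, 288 and 347 in NBT3L TCM, and 146 and 183 in NBT3L TCM + R788. In NB9464 TCM its libraries with and without R788 overlapped, whereas in NBT3L TCM it fell with R788 (-0.95 ± 0.21). Against NS it was -2.04 ± 0.19 in NB9464 TCM, -2.58 ± 0.19 in NBT3L TCM and -2.14 ± 0.19 with R788.

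Lgals3bp, a secreted glycoprotein that binds galectin, had normalized counts of 42301 and 43658 in NS, 21618 and 19774 in R788, 33441 and 33518 in NB9464 TCM, 22943 and 23202 in NB9464 TCM + R788, 36062 and 36813 in NBT3L TCM, and 18556 and 18657 in NBT3L TCM + R788. Both media took it down a little (-0.36 ± 0.051 and -0.24 ± 0.051), and R788 more so (-1.05 ± 0.051, -0.54 ± 0.051 and -0.97 ± 0.051). Xaf1, which promotes apoptosis, had 2932 and 3140 in NS, 1169 and 921 in R788, 1737 and 1893 in NB9464 TCM, 404 and 458 in NB9464 TCM + R788, 2572 and 2642 in NBT3L TCM, and 637 and 714 in NBT3L TCM + R788. Tor3a, an ATPase of the endoplasmic reticulum, had 7425 and 7276 in NS, 3803 and 3524 in R788, 5460 and 5936 in NB9464 TCM, 3675 and 3562 in NB9464 TCM + R788, 7686 and 7631 in NBT3L TCM, and 5266 and 4921 in NBT3L TCM + R788. Tor3a in NBT3L TCM stayed near NS (0.06 ± 0.072, not called), and was lower with scaling by library totals (-0.17, adjusted p = 0.0323), and Nt5c3 had 1690 and 1636 in NS, 1019 and 1020 in R788, 1541 and 1190 in NB9464 TCM, 1170 and 1100 in NB9464 TCM + R788, 1311 and 1314 in NBT3L TCM, and 1156 and 1139 in NBT3L TCM + R788. Epsti1 changed with R788 by -1.08, -0.78 and -1.002, and Ifi35 by -0.91, -0.80 and -1.27.

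Interaction contrasts tested whether a member responded to R788 to a different degree in 1 medium than in another, and a positive value means that the member fell less with R788 in the medium named first. Between NB9464 TCM and no TCM, 12 members were higher and 7 lower, where 6.22% and 6.26% of all genes were. Between NBT3L TCM and no TCM, 10 were higher and 11 lower, where 5.17% and 4.96% were. With scaling by library totals, 5 were higher and 12 lower there, with Dhx58, Ly6e, Nt5c3, Phf11b and Znfx1 lost. The interactions of members thus ran in both directions, at medians of 0.11 and 0.01 over the 45 members without Cxcl9. The largest positive interactions called in NB9464 TCM were those of Ifi44 (2.07 ± 0.75), Ms4a4c (2.03 ± 0.27), Isg20 (0.998 ± 0.37), Phf11b (0.97 ± 0.21) and Mov10 (0.79 ± 0.17), all of which were lower in this medium alone than in NS. The interactions of Ifi44 and Isg20 were not called by edgeR and were each lost without any 1 of at least 6 of the 8 libraries. Rtp4 and Cmpk2 fell more in NB9464 TCM: the interaction was -0.93 ± 0.13 for Rtp4 (adjusted p = 3.18e-11) and -0.84 ± 0.17 for Cmpk2 (adjusted p = 2.19e-05). Leaving out any single library kept 9 of the 19 calls (Cmpk2, Ly6e, Lgals3bp, Mov10, Ms4a4c, Phf11b, Rtp4, Uba7 and Znfx1). For NBT3L TCM it kept 3 of 21 (Ddx58, Ms4a4c and Tor3a).

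Between the 2 media, the effect of R788 differed for 4 members, where 0.706% of all genes differed. Parp12 (0.43 ± 0.10), Lgals3bp (0.43 ± 0.072) and Ly6e (0.36 ± 0.078) fell less in NB9464 TCM than in NBT3L TCM, and Rtp4 (-0.64 ± 0.13) fell more. The adjusted p values were 0.00783, 2.23e-06, 0.00208 and 0.000403 in that order. Of these, only Lgals3bp was also called by edgeR, and the calls of Ly6e and Parp12 were lost without NB9464 TCM + R788 replicate 9, among other libraries.

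The genes upstream of these effectors were read from a list of 55, of which 34 were tested. None of the 20 interferon ligands passed the count filter: 17 had 0 counts in all libraries, and the highest count was 10, for Ifnb1 in NBT3L TCM replicate 6. Its other counts were 8 in NBT3L TCM replicate 5 and 0 in the remaining 10 libraries. These cells were sampled after 24 h, so ligand transcripts at earlier times were not measured. The receptor genes Ifnar1 and Ifnar2 differed little, Ifnar1 by -0.21 ± 0.052 in NB9464 TCM and Ifnar2 by 0.42 ± 0.098 in NBT3L TCM, and neither was lower with R788. Of 6 receptor genes, 2 were higher and 3 lower in NB9464 TCM than in NS, and 2 and 2 in NBT3L TCM. The lowest value in both was that of Ifngr1 (-0.82 and -0.89). With R788 in NB9464 TCM, Ifngr1 had the highest value of the 6 (0.53). Of the 34 tested, 12 were higher and 14 lower in NB9464 TCM, where 17.2% and 16.9% of all genes were. In NBT3L TCM 13 were higher and 13 lower (18.0% and 17.3% of all genes), and with R788 alone 6 and 12 (11.6% and 15.0%). Within the media, 7 were higher and 8 lower with R788 in NB9464 TCM (5.79% and 8.7% of all genes), and 6 and 10 in NBT3L TCM (5.33% and 7.24%). Small changes against NS in this list also depended on the scaling, and the Ifnar2 call was lost with scaling by library totals (adjusted p = 0.111).

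Stat2 and Irf9, factors of ISGF3, and the amplifier Irf7 were lower with R788 along with the members. Irf7 (ENSMUSG00000025498, chromosome 7, 141262706 to 141266481, minus strand), which drives the later wave of interferon genes and is itself an interferon target, had normalized counts of 25056 and 25319 in NS, 4008 and 4138 in R788, 7585 and 7576 in NB9464 TCM, 1095 and 1076 in NB9464 TCM + R788, 11613 and 11324 in NBT3L TCM, and 1926 and 1775 in NBT3L TCM + R788. It changed with R788 by -2.63, -2.80 and -2.63, and with NB9464 and NBT3L TCM by -1.73 and -1.14. Stat2 changed with R788 by -1.11, -1.34 and -1.46 and with the media by -0.95 and -0.44. Irf9 changed with R788 by -0.34, -0.71 and -0.80. Cgas, the cytosolic DNA sensor, changed by -0.97, -0.91 and -1.01 with R788 and by -1.01 and -0.71 with the media. The lowest value of the upstream list in NBT3L TCM against NS was that of Tmem173 (-1.74).

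Of 6 tested genes listed as brakes on the pathway, 3 were higher and 2 lower in NB9464 TCM, and 4 were higher and 2 lower in NBT3L TCM. The lower ones were Pias1 and Samhd1 in both media, and Socs1 and Socs3 rose most. Socs3 was higher by 5.24 ± 0.18 in NB9464 TCM and 5.41 ± 0.18 in NBT3L TCM, with normalized counts of 487 and 491 in NS, 352 and 224 in R788, 18569 and 18442 in NB9464 TCM, 13563 and 12967 in NB9464 TCM + R788, 21084 and 20567 in NBT3L TCM, and 13043 and 12876 in NBT3L TCM + R788. Socs1, which blocks JAK1 and TYK2, was higher by 2.17 ± 0.17 and 3.41 ± 0.17. The kinase gene Jak2 was higher by 1.39 and 1.87, and Ikbke by 1.57 and 1.41. With R788 alone, Socs1 (-0.77 ± 0.18) and Socs3 (-0.77 ± 0.19) were lower, and the Socs1 call was lost when only the libraries compared were fitted (adjusted p = 0.129).

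Members with an ISRE core in the promoter window had a median log2 fold change with R788 of -1.20 without TCM, -1.30 with NB9464 TCM and -1.62 with NBT3L TCM (n = 12). Those with an entry and no core had -0.98, -0.83 and -1.002 (n = 23). Against NS, the medians were -0.64 with a core and -0.80 without in NB9464 TCM, and -0.22 and -0.35 in NBT3L TCM. The medians cover the 35 of 46 members with an entry. Members without an entry are in neither set. Among them are Mx1, with the largest fall with R788 in NB9464 TCM (-3.43), and Zbp1, with the largest in NBT3L TCM (-3.04). These medians are given as a description, without a test, since genes are not replicates.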

How the data were processed

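Poly(A)-selected RNA of mouse BMDMs was sequenced in 12 libraries, assigned by the labels to 6 groups of 2. The authors deposited raw read counts per gene, as whole numbers with no normalization, for 54232 Ensembl IDs. By their methods, reads were mapped to mm10 with STAR and quantified with Salmon, and the submitters' processing notes name STAR 2.6.1d and Salmon 1.4.0. The deposited table is also named for Salmon but has the layout of featureCounts, so the program behind the counts is unclear. Strand setting and treatment of multimapping reads are not given in the sources used here. The labels state paired reads and the methods single reads in triplicate. Since even values made up between 65.2% and 67.9% of counts from 1 to 40 in each library, halved counts were tried as well. Totals per library were between 44977847 and 56449685.

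Symbols and 1-based positions came from GENCODE M21 (GRCm38, mm10), which held 54079 of the IDs. The test took all 16281 genes that reached 10 counts in 2 or more libraries. As in the study, DESeq2 was used (version 1.42.0, R 4.3.3), with group means of all 12 libraries in 1 fit, two-sided Wald tests and unshrunken log2 fold changes. P-values were adjusted by Benjamini-Hochberg over all genes of a contrast, and a gene was called at an adjusted p under 0.05. Genes that DESeq2 left without an adjusted p were not called. Errors of log2 fold changes are standard errors, and errors of levels are SDs (n = 2). TPM was computed with the table's gene lengths. The procedure was tested on simulated data.

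Members and lists were chosen with earlier results of these data known. Values per library are given for 3 kinds of member: those among the 3 highest or 3 lowest called log2 fold changes of the first 6 contrasts, with a mean of at least 100 normalized counts, those called against the direction of most members of a contrast, and those with an interaction between the media. Library values of Isg15, Mx2, Cxcl9, Irf7 and Socs3 and group means of Ifitm3, Eif2ak2 and Phf11d were added after they were seen. Alternatives were edgeR 4.0.16 (quasi-likelihood test, TMM scaling), TMM scaling in DESeq2, no filter on low counts, a mean of at least 50 counts, only the libraries compared, halved counts, and leaving out each library in turn. Scaling by library totals was added after the data were seen.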

Additional observations from a re-analysis of the deposited data

Results flagged for a closer look

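The response to R788 differed between media for some members. The difference was tested as the log2 fold change with R788 in 1 medium minus that in another, at a DESeq2 adjusted p under 0.05, and a positive value means a smaller fall in the medium named first. In NB9464 TCM against no TCM, positive values were those of Ifi44 (2.07), Ms4a4c (2.03), Isg20 (0.998), Phf11b (0.97), Mov10 (0.79), Ly6e (0.60), Lgals3bp (0.52), Isg15 (0.48), Znfx1 (0.45), Bst2 (0.44), Parp12 (0.37) and Tor3a (0.35). Negative values were those of Rtp4 (-0.93), Cmpk2 (-0.84), Usp18 (-0.56), Xaf1 (-0.54), Parp14 (-0.46), Samd9l (-0.41) and Uba7 (-0.41). Of these 19 differences, 10 were lost when 1 or another library was left out, and Ifi44, Isg15, Isg20, Usp18 and Xaf1 were not called by edgeR.

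In NBT3L TCM against no TCM, positive values were those of Ms4a4c (1.19), Ifi27l2a (0.62), Phf11b (0.61), Mov10 (0.58), Nt5c3 (0.51), Tor3a (0.42), Bst2 (0.41), Dhx58 (0.35), Znfx1 (0.28) and Ly6e (0.24). Negative values were those of Herc6 (-0.84), Trim30d (-0.65), Ddx58 (-0.60), Zbp1 (-0.55), Ifitm3 (-0.45), Cmpk2 (-0.44), Ifih1 (-0.44), Parp14 (-0.42), Trim30a (-0.42), Uba7 (-0.32) and Sp100 (-0.32). Of these 21, 18 were lost when 1 or another library was left out, and Ddx58, Ms4a4c and Tor3a were not. Both interactions share the R788 and NS libraries, so the values of members in both lists are not independent.

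In NB9464 TCM against NBT3L TCM, positive values were those of Lgals3bp (0.43), Parp12 (0.43) and Ly6e (0.36), and the negative value was that of Rtp4 (-0.64). With 2 libraries per group, no group was large enough to look for single outlying samples.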

How the results depend on the processing

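No paired analysis was possible because the libraries carry the numbers 1 to 12 and no 2 groups share a number. With scaling by library totals, added after the data were seen, all genes shifted against NS as given above. Medians became -0.84 in NB9464 TCM against NS, -0.51 in NBT3L TCM against NS, -1.08 with R788 alone, -0.33 in NB9464 TCM against NBT3L TCM, -2.04 and -1.86 in NB9464 and NBT3L TCM + R788 against NS and 0.084 for the interaction with NB9464 TCM. In NBT3L TCM against NS, 38 members were lower and 0 higher, and 5 were higher in the interaction with NBT3L TCM. Signs turned in NBT3L TCM against NS for Tor3a (-0.17), Zbp1 (-0.20), Usp18 (-0.12), Jak1 (-0.00409) and Irf8 (-0.0428), and 16 member calls were lost. Calls over all genes, higher and lower, were 2445 and 1962 with R788 alone in place of 1882 and 2445, 2360 and 4257 in NB9464 TCM + R788 against NS in place of 3264 and 3162, and 2120 and 4991 in NBT3L TCM + R788 against NS in place of 3273 and 3205. For the interactions they were 661 and 1442 with NB9464 TCM in place of 1013 and 1019, 668 and 999 with NBT3L TCM in place of 842 and 807, and 38 and 112 between the media in place of 46 and 69. Under the other alternatives, no sign turned among the members called in the main fit or a set of uncalled values named in the text. The same held for genes of the upstream list called with TCM against NS or with R788 in a medium. Other uncalled values were left out of this check under every alternative. With a mean of at least 50 counts, the median log2 fold change was -0.68 in NB9464 TCM against NS and 0.10 for the interaction of R788 with NB9464 TCM. Members higher in NB9464 TCM than in NBT3L TCM numbered 0 with edgeR, 1 with halved counts and 1 with only the libraries compared. With edgeR, the interaction with NBT3L TCM had 5 higher and 5 lower members and that between the media 1 and 0. The interaction between the media had 5 higher members with only the libraries compared. The cause of these changes was not tested.

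Leaving out 1 library at a time gave medians from -0.75 to -0.69 in NB9464 TCM against NS and from -0.31 to -0.26 in NBT3L TCM against NS. They were from -1.19 to -1.05 for R788 in NB9464 TCM, from -1.27 to -1.21 for R788 in NBT3L TCM, from -1.93 to -1.83 for NB9464 TCM + R788 against NS, from -1.73 to -1.60 for NBT3L TCM + R788 against NS and from 0.088 to 0.17 for the interaction between the media. Members higher in NBT3L TCM than in NS numbered 0 to 1, with 0 without NS replicate 1. Members higher in NB9464 TCM than in NBT3L TCM numbered 0 to 1, with 0 without NB9464 TCM replicate 4 or either NBT3L TCM replicate. In the interaction with NB9464 TCM, 4 to 9 members were lower, with 4 without NS replicate 2 or NB9464 TCM + R788 replicate 9. In the interaction with NBT3L TCM, 4 to 10 were higher and 3 to 10 lower. Its count in 1 or both directions moved by more than 1.5 times without any library of the 4 groups except R788 replicate 7. Between the media, 1 to 4 were higher, with 1 without NB9464 TCM + R788 replicate 9.

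Over the single members, edgeR lost 25 calls and kept 351 values on their side of the threshold, and 181 calls were lost over all left-out libraries, against 1496 values that kept their side. Leaving out 1 library leaves its group with a single library, which is assumed to vary like the other groups. Few counts limit what can be said of Cxcl9 and, outside NS, of Ifi44.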
